A study of Mus musculus with 9 samples.

Results

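The genes described here encode the vacuolar proton pump, or V-ATPase, of lysosomes. The set holds 10 genes, chosen by name from the subunits of the pump with earlier results of these data known. It comprises the V1 subunit genes Atp6v1a, Atp6v1b2, Atp6v1c1, Atp6v1d, Atp6v1e1 and Atp6v1h, the V0 subunit genes Atp6v0a1 and Atp6v0d1, and the accessory genes Atp6ap1 and Atp6ap2. All 10 are among the 13116 genes of the deposited table, and all 10 passed the filter on low values and were tested. RNA came from quadriceps muscle of male mice aged 18 months in 3 groups of 3 libraries. WT_PBS mice carried the wild-type genotype and received PBS, KO_PBS mice were Gaa knockouts that received PBS, and KO_secGAA mice were Gaa knockouts that received the vector AAV8-sp7-delta8-hGAAco for a secretable human acid alpha-glucosidase (secGAA). The title of the series places expression of the enzyme in the liver. Which promoter and dose the vector had, and which strain the mice were, is not given in the sources used here. Mice aged 9 months were injected through a tail vein, and their muscle was collected 9 months later. The labels number every library separately but do not say that each is a separate mouse, so the p-values measure the spread between these libraries.

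The V-ATPase is a rotary motor of many subunits. Its cytosolic V1 sector hydrolyses ATP in a ring of alternating A and B subunits, and the energy turns a central stalk that drives protons through the membrane-bound V0 sector into the lysosome. The acid pH that results is the working pH of acid alpha-glucosidase, the lysosomal glycogen-degrading enzyme that Gaa encodes and that is missing in Pompe disease. The pump also serves as a docking platform for the Ragulator and Rag proteins that bring the kinase mTORC1 to the lysosome, and many of its subunit genes are known targets of the transcription factors TFEB and TFE3, which bind the CLEAR element.

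Promoter windows are shown because many pump genes are described as sharing the CLEAR element, and because the levels of some, but not all, of them changed in this muscle. Windows of 300 bases, from 250 before to 50 after a transcript start, were taken from RefSeq on GRCm38.p6 and matched 7 of the 10 genes by symbol. Atp6v1h, Atp6v1b2 and Atp6v1c1 had no entry. Each window was searched on both strands for the E-box core CACGTG and for TCACGTGA, the 8 core letters of the CLEAR element, which contain the first motif; both read the same on either strand. TCACGTGA was found in 2 of the 7 windows, those of Atp6v1a and Atp6v0d1, and no window held CACGTG outside it. Of all 32817 windows in the table, 7.15% held CACGTG and 0.975% held TCACGTGA. The windows below are those of the 2 genes with the motif and, for contrast, of Atp6ap2, which rose in the knockout, and Atp6v1e1, which did not pass the test there. Capitals mark TCACGTGA, and each sequence runs 5′ to 3′ on the minus strand except that of Atp6ap2, which is on the plus strand.
Atp6v1a, chr16:44139210-44139509: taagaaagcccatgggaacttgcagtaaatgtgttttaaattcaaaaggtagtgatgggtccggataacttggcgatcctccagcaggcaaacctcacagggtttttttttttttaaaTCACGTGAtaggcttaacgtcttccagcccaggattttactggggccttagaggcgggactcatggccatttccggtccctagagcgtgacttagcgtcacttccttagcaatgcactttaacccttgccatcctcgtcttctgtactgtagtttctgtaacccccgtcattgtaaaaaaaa
Atp6v0d1, chr8:105566015-105566314: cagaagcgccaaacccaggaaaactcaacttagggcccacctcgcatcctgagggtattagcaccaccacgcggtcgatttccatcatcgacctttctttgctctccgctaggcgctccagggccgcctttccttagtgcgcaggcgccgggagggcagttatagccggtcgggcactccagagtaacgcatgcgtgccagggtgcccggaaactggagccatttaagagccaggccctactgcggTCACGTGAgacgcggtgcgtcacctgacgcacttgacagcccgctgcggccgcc
Atp6ap2, chrX:12587509-12587808: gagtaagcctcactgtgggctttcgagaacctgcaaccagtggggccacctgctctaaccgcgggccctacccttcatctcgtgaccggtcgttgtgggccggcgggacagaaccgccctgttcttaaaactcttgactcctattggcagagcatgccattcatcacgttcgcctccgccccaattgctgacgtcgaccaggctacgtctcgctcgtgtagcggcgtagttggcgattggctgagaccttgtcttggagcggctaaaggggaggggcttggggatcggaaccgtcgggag
Atp6v1e1, chr6:120822649-120822948: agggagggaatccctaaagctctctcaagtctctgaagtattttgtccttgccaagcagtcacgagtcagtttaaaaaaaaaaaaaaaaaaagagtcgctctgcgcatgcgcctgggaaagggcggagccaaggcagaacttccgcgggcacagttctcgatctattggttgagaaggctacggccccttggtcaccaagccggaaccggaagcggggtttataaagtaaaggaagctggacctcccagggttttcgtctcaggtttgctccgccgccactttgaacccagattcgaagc
In the Atp6v1a window the first base of CACGTG lay at position -131 from the RefSeq start, which is 446 bases inside the outermost start that GENCODE gives the gene. In the Atp6v0d1 window it lay at position -3. A match describes these letters only; binding of a factor was not measured.

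The libraries held 9299156 to 15957106 reads in the genes of the table, and 1 read was worth 0.0652 to 0.0922 normalized counts. The unit, normalized counts, is reads per 1e+06 reads after a scaling factor for each library. Gaa, the targeted gene, stood at 296, 129 and 264 normalized counts in the WT_PBS libraries, from 14.02 to 17.8 in those of KO_PBS and from 15.1 to 16.6 in those of KO_secGAA, so every knockout library matched its label. The skeletal muscle genes Acta1, Ckm and Ttn were abundant in every library, with Acta1 at 22370 to 34840 normalized counts, as the labelled tissue has it. Scaling factors ran from 0.873 to 0.914 for WT_PBS, from 1.07 to 1.17 for KO_PBS and from 0.963 to 1.03 for KO_secGAA. Without them the median log2 fold change of all genes moved by 0.30 for KO_PBS against WT_PBS, by -0.15 in KO_secGAA against KO_PBS and by 0.16 in KO_secGAA against WT_PBS. The share of called genes that were higher went from 49.9% to 89.6%, from 37.2% to 10.6% and from 49.1% to 86.2% in the same order.

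**Figure D1:**
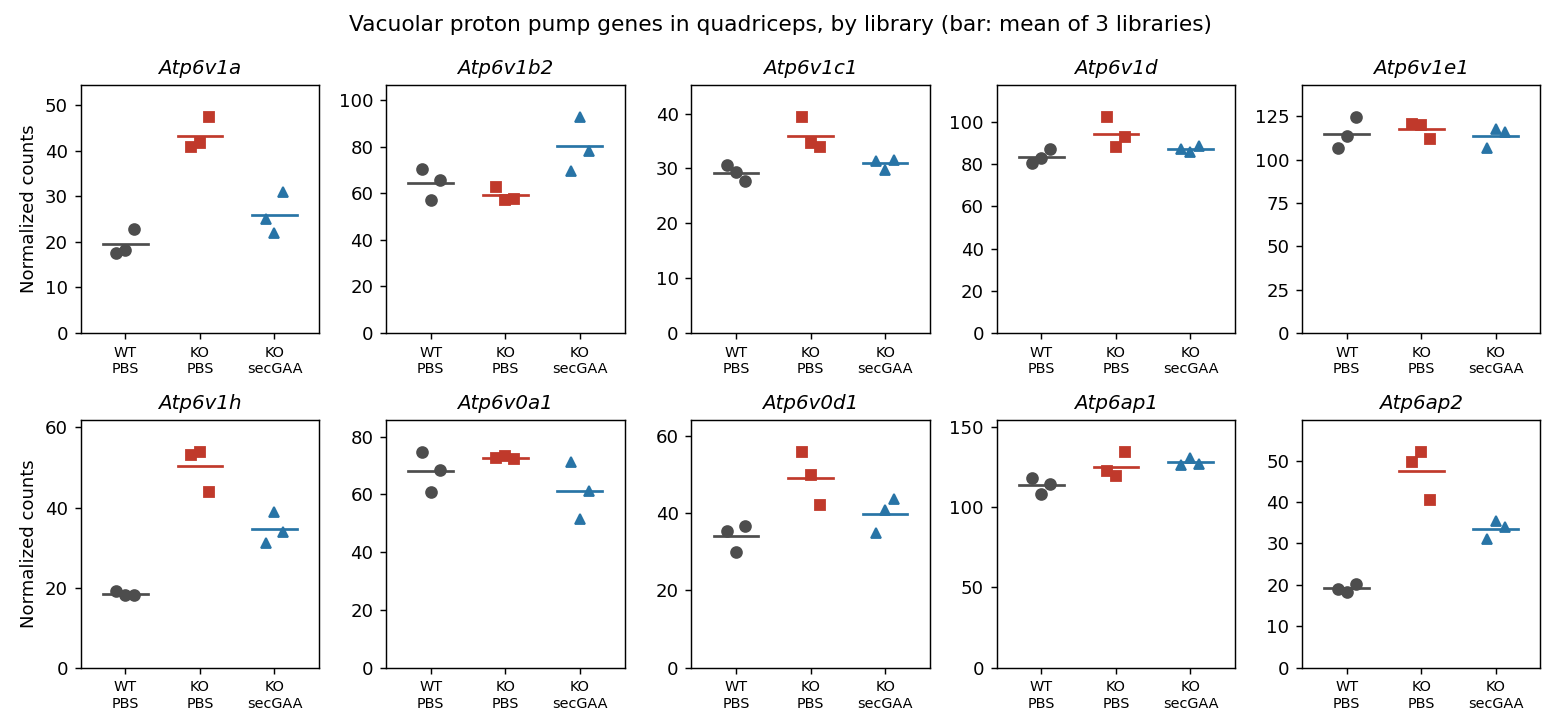
Normalized counts (vertical axes, linear and starting at 0) of the 10 pump genes in each of the 9 libraries, grouped as WT_PBS (circles), KO_PBS (squares) and KO_secGAA (triangles), with a bar at each group's mean. Atp6v1a, Atp6v1h and Atp6ap2 stand well above wild type in KO_PBS and lie between in KO_secGAA, with the treated groups of Atp6v1h and Atp6ap2 above every wild-type library, whereas Atp6v1e1 and Atp6v0a1 overlap between KO_PBS and WT_PBS.

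In the untreated knockout muscle, 5 of the 10 pump genes rose against wild type and none fell, while 5 did not pass the test (limma on log2(value + 0.5), Benjamini-Hochberg adjusted p under 0.05 over all genes). Among all 13089 genes tested, 10.9% rose and 11% fell. Since the 10 genes were chosen with earlier results of these data known, this difference in share is not a test of the set. Atp6v1h, Atp6ap2 and Atp6v1a rose by 2.67-fold, 2.43-fold and 2.19-fold, Atp6v0d1 by 1.44-fold and Atp6v1c1 by 1.23-fold. The median log2 fold change of the 10 genes was 0.23, beside 0.01 for all genes, and single genes ran from -0.12 to 1.42. In bulk muscle, more or fewer cells of a type and more or less RNA per cell cannot be told apart. Every fold change here is on the log2(value + 0.5) scale.

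Atp6v1h (ENSMUSG00000033793, GRCm38 chr1:5070018-5162529, plus strand) encodes subunit H, which V1 needs to turn ATP hydrolysis into proton transport. It measured 19.2, 18.1 and 18.2 normalized counts in WT_PBS, against 53.2, 53.9 and 43.9 in KO_PBS, with 31.1, 38.9 and 33.8 in KO_secGAA. The lowest KO_PBS library was above every wild-type library by a wide margin. The log2 fold change was 1.42 (SE 0.11, limma adjusted p = 5.4e-05). Its exons share 127 bases, 1.3% of their length, with Rgs20 on the other strand, and whether strand was used in counting is not given in the sources used here.

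Atp6v1a (ENSMUSG00000052459, chr16:44085402-44139705, minus strand) encodes the catalytic subunit A, which binds and splits ATP. Its levels were 17.7, 18.3 and 22.9 normalized counts in WT_PBS, against 40.8, 41.7 and 47.3 in KO_PBS, with 25.0, 21.99 and 31.0 in KO_secGAA. KO_PBS did not overlap with either other group. The rise was 1.13 on the log2 scale (SE 0.14, limma adjusted p = 0.000708).

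Atp6v1b2, the partner of Atp6v1a in the catalytic ring, is the B isoform found in most tissues. It stood at 70.6, 57.2 and 65.6 normalized counts in WT_PBS and at 62.7, 57.3 and 57.6 in KO_PBS. These groups overlapped, and the log2 difference of -0.12 (95% interval -0.38 to 0.15, limma adjusted p = 0.515) did not pass. The interval of Atp6v1a, 0.81 to 1.45, did not overlap with this one.

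The remaining V1 genes encode stalk parts and a connector. Atp6v1c1, for subunit C, which links V1 to V0 and leaves when the pump comes apart, measured 30.5, 29.3 and 27.6 normalized counts in WT_PBS and 39.3, 34.7 and 33.9 in KO_PBS. The groups did not overlap, and the log2 fold change was 0.30 (SE 0.09, limma adjusted p = 0.0396). That call was lost when any 1 of the 9 libraries was left out, with adjusted p up to 0.138. Atp6v1d, for the rotor subunit D, differed by 0.17 (limma adjusted p = 0.153) and Atp6v1e1, for the outer stalk subunit E, by 0.03 (95% interval -0.15 to 0.22, adjusted p = 0.81). Atp6v1e1 held 107 to 124 normalized counts in WT_PBS and 112 to 121 in KO_PBS.

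In V0, Atp6v0d1 rose and Atp6v0a1 did not pass. Atp6v0d1 (ENSMUSG00000013160, chr8:105524465-105566047, minus strand) encodes subunit d, which couples the rotor to the proton-carrying ring. It measured 35.3, 30.0 and 36.5 normalized counts in WT_PBS, against 55.7, 49.8 and 42.0 in KO_PBS, with 34.8, 40.9 and 43.5 in KO_secGAA. KO_PBS was above wild type without overlap, and the log2 fold change was 0.52 (SE 0.13, limma adjusted p = 0.0192). Leaving out WT_PBS 2, KO_PBS 1 or KO_PBS 2 ended the call, at adjusted p of 0.0678, 0.0611 and 0.0614. Atp6v0a1, for an isoform of subunit a, which forms the proton half-channels, held 61.0 to 74.7 normalized counts in WT_PBS and 72.2 to 73.4 in KO_PBS (log2 difference 0.10, limma adjusted p = 0.587).

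Of the accessory genes, Atp6ap2 rose and Atp6ap1 did not pass. Atp6ap2 (ENSMUSG00000031007, chrX:12587801-12617049, plus strand) encodes the (pro)renin receptor, a membrane protein that helps the V0 sector to assemble. Its levels were 18.9, 18.4 and 20.2 normalized counts in WT_PBS, against 49.7, 52.0 and 40.5 in KO_PBS, with 31.2, 35.4 and 34.1 in KO_secGAA. All KO_PBS libraries were above all others, and the log2 fold change was 1.28 (SE 0.11, limma adjusted p = 7.6e-05). Atp6ap1, for the other accessory protein, also called Ac45, measured 118, 108 and 114 normalized counts in WT_PBS and 122, 119 and 134 in KO_PBS. Its log2 difference was 0.14 (95% interval -0.03 to 0.31, limma adjusted p = 0.22).

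**Figure D2:**
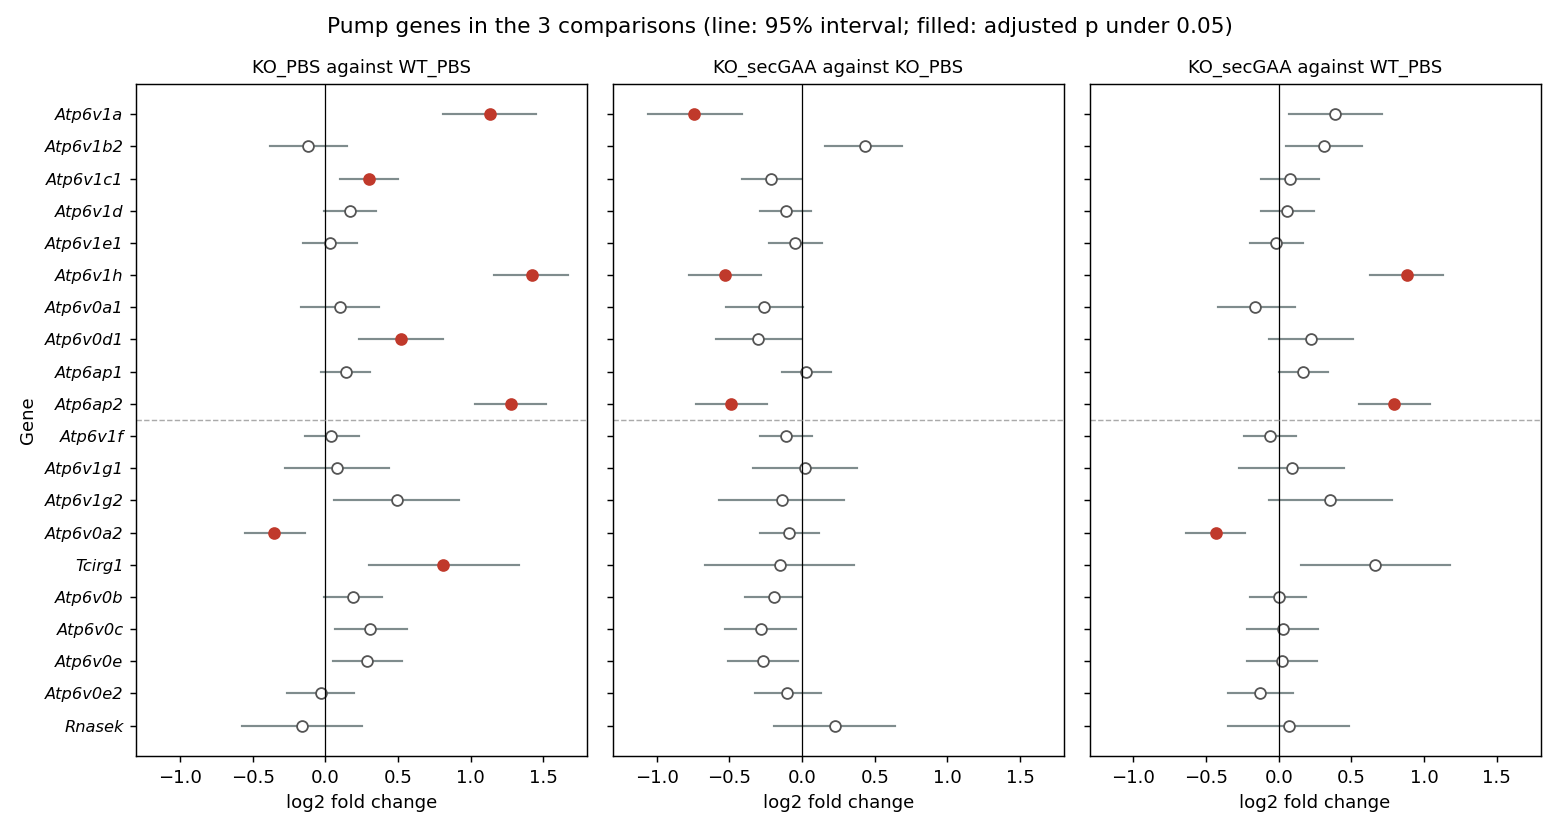
Log2 fold changes (horizontal axes) of the 10 pump genes, above the dashed line, and of 10 other subunit genes, below it, in the 3 comparisons, with 95% intervals as lines and filled points where limma's adjusted p was under 0.05. Atp6v1h, Atp6ap2 and Atp6v1a lie farthest to the right in KO_PBS against WT_PBS at 1.42, 1.28 and 1.13, and the same genes are the only filled points in KO_secGAA against KO_PBS.

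A further 17 genes for subunits, isoforms and partners of the pump were listed. The table held 10 of them, and Atp6v1b1, Atp6v1c2, Atp6v1e2, Atp6v1g3, Atp6v0a4, Atp6v0d2 and Atp6ap1l were not analysed here. In KO_PBS against WT_PBS, 1 rose, 1 fell and 8 did not pass, with a median log2 fold change of 0.13. These counts lay near the shares of all genes, 10.9% risen and 11% fallen. Tcirg1, the a3 isoform known from osteoclasts and the lysosomes of macrophages, measured 6.48, 6.64 and 4.18 normalized counts in WT_PBS and 8.51, 11.1 and 11.6 in KO_PBS. It rose by 0.81 on the log2 scale (SE 0.23, limma adjusted p = 0.0314), and the call ended without WT_PBS 3, KO_PBS 2 or KO_PBS 3, at adjusted p of 0.114, 0.0968 and 0.0953.

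Atp6v0a2, the a2 isoform known from the Golgi and endosomes, was lower. It measured 37.6, 38.7 and 40.8 normalized counts in WT_PBS, against 31.0, 31.3 and 29.6 in KO_PBS, with 31.8, 26.5 and 28.1 in KO_secGAA. Wild type was above both knockout groups without overlap. In KO_PBS against WT_PBS it fell by 0.35 on the log2 scale (SE 0.09, limma adjusted p = 0.0238). That call ended without WT_PBS 2, WT_PBS 3 or any 1 KO_PBS library, with adjusted p of 0.0511 to 0.0917, and without scaling factors the difference was -0.03.

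The proton ring and the small V0 subunits did not pass the test. Atp6v0c, the main ring gene, measured 173, 149 and 176 normalized counts in WT_PBS and 239, 196 and 185 in KO_PBS (log2 difference 0.31, limma adjusted p = 0.071). These groups did not overlap. The difference passed in 2 of 20 alternatives, without scaling factors and with quantile normalization (log2 0.41, limma adjusted p = 0.00835). Reads of Atp6v0c may be shared with its 2 named pseudogenes, so its level is uncertain. Atp6v0e differed by 0.29 (limma adjusted p = 0.0787) and Atp6v0b by 0.19 (adjusted p = 0.156), both with KO_PBS above WT_PBS without overlap. Atp6v1g2, known from neurons, held 1.34 to 1.81 normalized counts in WT_PBS and 2.07 to 2.80 in KO_PBS, from 19 to 38 reads a library. Atp6v1f, Atp6v1g1, Atp6v0e2 and Rnasek had log2 differences of 0.04, 0.08, -0.03 and -0.16. Exons of Rnasek share 67.7% of their length with Gm21988 on the same strand, so its reads cannot be assigned with certainty.

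Promoters of the other subunits were searched in the same way. RefSeq entries matched 7 of these 10 genes, with 12 windows in all. TCACGTGA was in 1 window, that of Atp6v0e, whose RefSeq start is 13165 bases inside the outermost start that GENCODE gives the gene, and CACGTG alone in that of Atp6v0b. Over all subunits with an entry, 3 of 19 windows, from 3 of 14 genes, held TCACGTGA, beside 0.975% of all windows. These genes were Atp6v1a and Atp6v0d1, which rose in KO_PBS, and Atp6v0e, which did not pass. Atp6ap2 and Tcirg1 rose there with neither motif in their windows, and Atp6v1h and Atp6v1c1, which rose too, had no window. A link between motif and rise was not tested.

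The treated knockout muscle was compared with the untreated one to ask which pump genes moved with the vector. None of the 10 genes rose and 3 fell, while 7 did not pass; of all genes, 1.37% rose and 2.31% fell. The genes that fell were Atp6v1a, by 1.67-fold, Atp6v1h, by 1.45-fold, and Atp6ap2, by 1.40-fold. Their normalized counts in KO_secGAA lay below every KO_PBS library. On the log2 scale Atp6v1a fell by 0.74 (SE 0.14, limma adjusted p = 0.0267), Atp6v1h by 0.53 (SE 0.11, adjusted p = 0.036) and Atp6ap2 by 0.49 (SE 0.11, adjusted p = 0.042). The median of the 10 genes was -0.24, beside 0.00 for all genes.

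These 3 falls lay near the threshold. With no mean-variance trend in limma none of the 10 genes passed, although 4 had an unadjusted p under 0.05. DESeq2 on the recovered reads called all 3. The call of Atp6v1a ended without any 1 KO_PBS library or without KO_secGAA 1 or 2, at adjusted p of 0.0566 to 0.0906. Atp6v1h lost its call without WT_PBS 2 or 3, KO_PBS 1 or 2, or KO_secGAA 1 or 3, at 0.0535 to 0.121. For Atp6ap2 the same held without WT_PBS 2 or 3, KO_PBS 1 or 2, or any 1 KO_secGAA library, at 0.0593 to 0.142. The log2 differences themselves stayed between -0.89 and -0.62, -0.69 and -0.46, and -0.64 and -0.42 over the 20 alternative settings.

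Atp6v1b2 differed in the other direction. It measured 69.7, 92.6 and 78.2 normalized counts in KO_secGAA, above all KO_PBS libraries, and overlapped with wild type. Its log2 difference from KO_PBS was 0.43 (95% interval 0.16 to 0.69, limma adjusted p = 0.0835), which did not pass; DESeq2 gave an adjusted p of 0.0293. Atp6v0d1 differed by -0.30 (limma adjusted p = 0.247), Atp6v0a1 by -0.26 (adjusted p = 0.276) and Atp6v1c1 by -0.21 (adjusted p = 0.231). Atp6v1d, Atp6v1e1 and Atp6ap1 had log2 differences of -0.11, -0.05 and 0.03. Of the 10 other subunits none passed by limma, with log2 differences from -0.28 for Atp6v0c to 0.23 for Rnasek.

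KO_secGAA was also set against WT_PBS, to ask which pump genes were still off the wild-type level after treatment. This comparison and the other 2 share libraries, so their values are given side by side and not as independent results. Here 2 of the 10 genes rose, none fell and 8 did not pass; of all genes, 1.83% rose and 1.89% fell. Atp6v1h was 1.84-fold higher (log2 0.88, SE 0.11, limma adjusted p = 0.00428) and Atp6ap2 1.73-fold higher (log2 0.79, SE 0.11, adjusted p = 0.00647). Every treated library of both genes was above every wild-type library, and both calls held in 20 of 20 alternative settings, with adjusted p up to 0.0262 and 0.0347.

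Atp6v1a no longer passed against wild type. Its treated libraries overlapped with wild type, since KO_secGAA 2 at 21.99 normalized counts lay below WT_PBS 3 at 22.9. The log2 difference was 0.39 (95% interval 0.07 to 0.71, limma adjusted p = 0.152), and this unadjusted interval lay above 0 throughout. Atp6v0a2 fell by 0.43 on the log2 scale (SE 0.09, limma adjusted p = 0.034). Without WT_PBS 1, 2 or 3, KO_PBS 2, or KO_secGAA 2 or 3 that call ended, at adjusted p of 0.0501 to 0.132. Tcirg1 was at 9.54, 11.9 and 6.88 normalized counts, above all wild-type libraries, with a log2 difference of 0.66 that did not pass (limma adjusted p = 0.136).

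**Figure D3:**
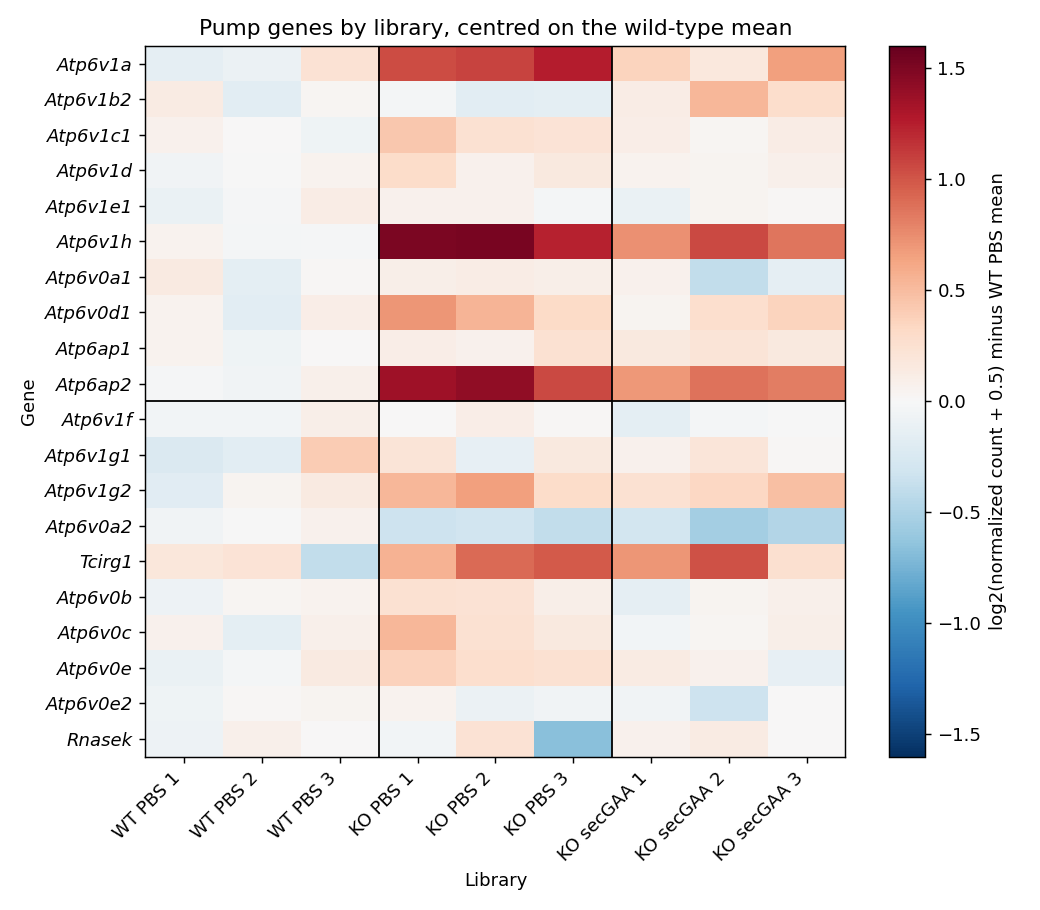
Log2(normalized count + 0.5) of the 20 subunit genes (rows; the 10 pump genes above the horizontal line) in the 9 libraries (columns), as the difference from each gene's WT_PBS mean, on a colour scale from blue (lower) to red (higher). Atp6v1a, Atp6v1h and Atp6ap2 are red in all KO_PBS libraries and paler in KO_secGAA, and Atp6v0a2 is blue in all 6 knockout libraries.

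Taking all 20 subunits together, 6 rose, 1 fell and 13 did not pass in KO_PBS against WT_PBS, none rose and 3 fell in KO_secGAA against KO_PBS, and 2 rose and 1 fell in KO_secGAA against WT_PBS. Of all genes, 10.9% rose and 11% fell in the first comparison, 1.37% and 2.31% in the second, and 1.83% and 1.89% in the third. Medians of the 20 subunits were 0.18, -0.15 and 0.08, beside 0.01, 0.00 and 0.00 for all genes. To describe the proportions among pump transcripts, each library was shifted so that the mean log2 value of its 20 subunit genes was the same in all libraries, a scaling chosen after the data were seen. Against this mean, Atp6v1h was higher in KO_PBS than in WT_PBS by 1.08 (limma adjusted p = 7.3e-05), Atp6ap2 by 0.95 (adjusted p = 9.1e-05) and Atp6v1a by 0.80 (adjusted p = 0.00216). The difference was -0.68 for Atp6v0a2 (limma adjusted p = 0.000562), -0.45 for Atp6v1b2 (adjusted p = 0.00916), -0.49 for Rnasek (adjusted p = 0.0385), -0.36 for Atp6v0e2 (adjusted p = 0.0207), -0.30 for Atp6v1e1 (adjusted p = 0.00843) and -0.29 for Atp6v1f (adjusted p = 0.0141). The mean includes the genes that rose, and the scaling moved the median of all genes by -0.33, so these lower values are relative to the pump mean only. Atp6v0d1, at 0.19, and Atp6v1c1, at -0.04, did not differ from the mean of the pump at the threshold. Between KO_secGAA and KO_PBS the same scaling gave -0.57 for Atp6v1a (limma adjusted p = 0.0412) and 0.59 for Atp6v1b2 (adjusted p = 0.0154).

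Among the 10 genes, Atp6v1h and Atp6ap2 had the closest profiles over the 9 libraries, with a root mean square difference of 0.0829 between their centred log2 values. The most distant pair was Atp6v1h and Atp6v1b2, at 0.639. The averaged profile of the 10 genes ran from -0.33 to -0.20 in WT_PBS, from 0.18 to 0.30 in KO_PBS and from -0.04 to 0.06 in KO_secGAA. Of 9143 other genes with a mean of at least 5 normalized counts, the 5 nearest to it were Cd151, Psma5, Pdxdc1, Ppp1r12a and Ssh2, at root mean square differences of 0.0449, 0.0575, 0.0602, 0.0615 and 0.0632. Cd151, a tetraspanin of the cell surface, measured 103 ± 2.84 normalized counts in WT_PBS, 147 ± 4.81 in KO_PBS and 123 ± 3.10 in KO_secGAA (SD, n = 3 libraries). Atp6v0d1 was the member nearest to the average, at 0.101, and Atp6v1h the farthest, at 0.393. By nearness to the average among all genes tested, Atp6v0d1 ranked 83 and Atp6v1h 8832. Atp6ap2, Atp6v1b2 and Atp6v1a ranked 6949, 6308 and 6279. Genes near the average are therefore not necessarily near these members.

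**Figure D4:**
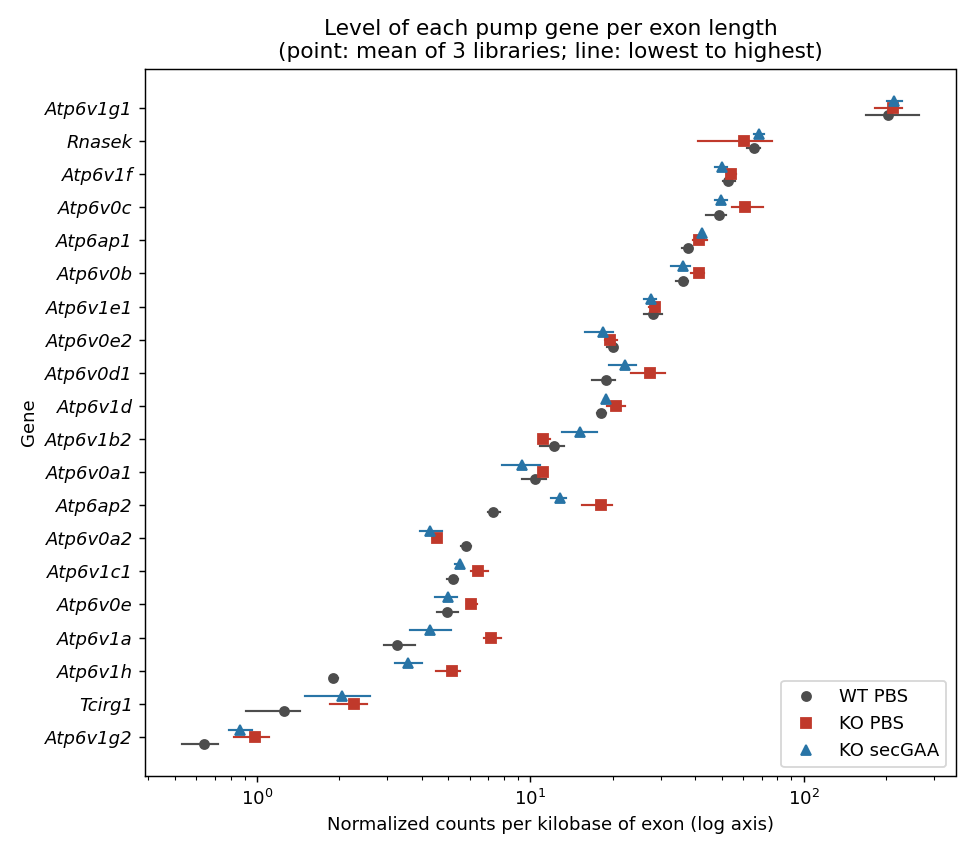
Normalized counts per kilobase of exon (horizontal log axis) of the 20 subunit genes, ordered by their WT_PBS mean, with group means as points and the lowest to highest library as lines. In WT_PBS Atp6v1h stands at 1.90 and Atp6ap1 at 37.5, and the points of Atp6v1h, Atp6v1a and Atp6ap2 spread apart between groups while those of Atp6v1e1 lie together.

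Levels were compared between genes only per kilobase of merged exons. In wild-type muscle the order of the 10 genes from low to high was Atp6v1h (1.90 normalized counts per kilobase), Atp6v1a (3.25), Atp6v1c1 (5.20), Atp6ap2 (7.32), Atp6v0a1 (10.4), Atp6v1b2 (12.2), Atp6v1d (18.2), Atp6v0d1 (18.9), Atp6v1e1 (28.0) and Atp6ap1 (37.5). Atp6v0a1 and Atp6v1b2 overlapped between libraries, and so did Atp6v1d and Atp6v0d1; other neighbours did not. In KO_PBS Atp6v1h reached 5.16 and stayed lowest, Atp6v1a reached 7.16 and overlapped with Atp6v1c1 at 6.42, and Atp6ap2 reached 18.1 and overlapped with Atp6v1d at 20.5. The 3 genes with the largest rises were thus among the 4 lowest of the set in wild type. Transcript ends and isoforms in use can differ from the merged exons, which bears on levels between genes but not on the comparisons of groups.

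Genes for proteins that assemble or regulate the pump were listed next. Of 11 such genes tested, 2 rose, 2 fell and 7 did not pass in KO_PBS against WT_PBS, with a median of 0.16, beside 10.9% risen and 11% fallen and a median of 0.01 for all genes. Nothing particular to the list is read from these counts, nor from those of the next 2 lists. Dmxl2, a subunit of the RAVE-like complex that joins V1 to V0, rose from 3.59 ± 0.665 to 8.01 ± 0.505 normalized counts (SD, n = 3 libraries; log2 fold change 1.07, limma adjusted p = 0.00401), whereas its relative Dmxl1 fell by 0.34 (adjusted p = 0.0344). Vma21, an assembly chaperone of V0, rose by 0.26 (limma adjusted p = 0.0363). This call passed in 11 of 20 alternative settings, with adjusted p up to 0.104, and that of Dmxl1 in 13 of 20, with adjusted p up to 0.845. Oxr1, whose family of TLDc proteins takes V1 off the pump, fell by 0.53 (limma adjusted p = 0.00113) and, in KO_secGAA against WT_PBS, by 0.32 (adjusted p = 0.0461). The latter call passed in 6 of 20 alternatives and ended when any 1 of the 9 libraries was left out, with adjusted p up to 0.247. Without scaling factors the differences of Dmxl1 and Oxr1 in the knockout were -0.03 and -0.21 and did not pass. None of the 11 passed in KO_secGAA against KO_PBS by limma.

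Channels and exchangers that share the lysosomal membrane with the pump were listed as well. Of 13 tested in KO_PBS against WT_PBS, 2 rose, 1 fell and 10 did not pass, with a median of 0.13, beside 10.9% risen and 11% fallen of all genes. Tpcn1, a cation channel of endosomes and lysosomes, measured 41.0, 41.6 and 38.8 normalized counts in WT_PBS, against 46.6, 49.7 and 50.1 in KO_PBS, with 36.0, 32.9 and 34.4 in KO_secGAA. It rose by 0.27 in the knockout (limma adjusted p = 0.0369) and fell by 0.50 with the vector (adjusted p = 0.0106), the only gene of this list to pass there. Clcn5, a chloride-proton exchanger at 0.629 to 2.18 normalized counts, rose by 0.84 (limma adjusted p = 0.0448), and Clcn4 fell by 0.33 (adjusted p = 0.0328), or by 0.02 without scaling factors, which did not pass. In KO_PBS against WT_PBS the call of Clcn5 passed in 7 of 19 alternatives (adjusted p up to 0.145 over limma and the other tools), that of Tpcn1 in 12 of 20 (up to 0.132) and that of Clcn4 in 12 of 20 (up to 0.897).

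The machinery that reads the pump for mTORC1 and TFEB gave 2 rises, 1 fall and 12 genes that did not pass among 15 tested in KO_PBS against WT_PBS, with a median of 0.10, beside 10.9% risen and 11% fallen of all genes. Rragc, a Rag GTPase, rose from 28.2 ± 0.928 to 40.1 ± 2.34 normalized counts (SD, n = 3 libraries; log2 fold change 0.50, limma adjusted p = 0.00343). Tfe3 rose by 0.55 (limma adjusted p = 0.00933), while Tfeb fell by 0.47 (adjusted p = 0.00438), or by 0.15 without scaling factors, which did not pass. Tfeb and Rragd were below wild type in KO_secGAA too, by 0.45 (limma adjusted p = 0.0227) and 0.42 (adjusted p = 0.022). Each of these 2 calls passed in 14 of 20 alternatives, with adjusted p up to 0.108 and 0.107. Of these 15 genes none passed in KO_secGAA against KO_PBS with the main limma settings. Rragc differed there by -0.36 (limma adjusted p = 0.0539) and passed in 4 of 20 alternatives. Rragd differed by -0.26 (limma adjusted p = 0.115) and passed in 1 of 20, that without scaling factors.

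Markers of cell types were set beside the pump genes. In KO_PBS against WT_PBS, 10.9% of all genes rose and 11% fell. Of 24 macrophage markers, 10 rose, none fell and 14 did not pass there. Their summed normalized counts were 139 to 215 in WT_PBS, 335 to 478 in KO_PBS and 188 to 396 in KO_secGAA. No macrophage marker was missing from the table, and their log2 fold changes ran from -0.30 to 2.12. Cd68 measured 4.42, 2.42 and 2.70 in WT_PBS and 12.2, 14.8 and 13.0 in KO_PBS (log2 fold change 1.94, limma adjusted p = 0.000383). Adgre1, at 0.99 (limma adjusted p = 0.0871), and Csf1r, at 0.39 (adjusted p = 0.223), did not pass. Of 10 satellite cell and regenerating fibre markers, 6 rose and none fell, with sums of 99.5 to 138, 294 to 350 and 159 to 166. Nes alone gave 140, 162 and 141 of the KO_PBS sums, and Myh8 gave 88.6 in KO_PBS 1. Myod1 measured 26.7, 37.0 and 19.4 in KO_PBS but 27.5, 56.8 and 52.1 in KO_secGAA. Nes rose by 2.05 on the log2 scale (limma adjusted p = 3.5e-05) and Ncam1 by 2.99 (adjusted p = 3.9e-05). Pax7 was among the markers of this list that did not pass (log2 difference 0.70, limma adjusted p = 0.152). The 10 skeletal muscle genes summed to 154300 to 178100, 112400 to 129900 and 136800 to 150300, with 1 risen and 4 fallen. Between KO_secGAA and KO_PBS, 3 of the 10 regenerating fibre markers and 1 of the 24 macrophage markers fell. None of either list rose, and none of the 10 skeletal muscle genes passed. Of all genes, 1.37% rose and 2.31% fell there. The log2 differences were -1.40 for Nes (limma adjusted p = 0.00229), -1.91 for Ncam1 (adjusted p = 0.00313) and -0.99 for Cd68 (adjusted p = 0.042). The call of Cd68 passed in 12 of 20 alternatives. The part of these cell types in the pump results was not tested.

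Smaller lists covered osteoclasts and kidney intercalated cells, which are known for high pump levels, and other cell types. Of the osteoclast markers, 3 of 6 were in the table: Ctsk rose by 0.98 on the log2 scale (limma adjusted p = 0.0137), Mmp9 fell by 1.71 (adjusted p = 0.00603) and Acp5 did not pass. None of 4 markers of kidney intercalated cells was in the table. Among 7 fibroblast markers 1 rose, among 7 endothelial markers 4 fell, and none of 5 adipocyte or 6 Schwann cell markers passed by limma in KO_PBS against WT_PBS. Of all genes, 10.9% rose and 11% fell in that comparison. Between KO_secGAA and KO_PBS, 2 of the 7 fibroblast markers fell and 1 of the 5 adipocyte markers rose, beside 1.37% risen and 2.31% fallen of all genes. The log2 difference of the fibroblast marker Lum was -1.23 (limma adjusted p = 0.00643). None of the osteoclast, endothelial or Schwann cell markers passed there.

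**Figure D5:**
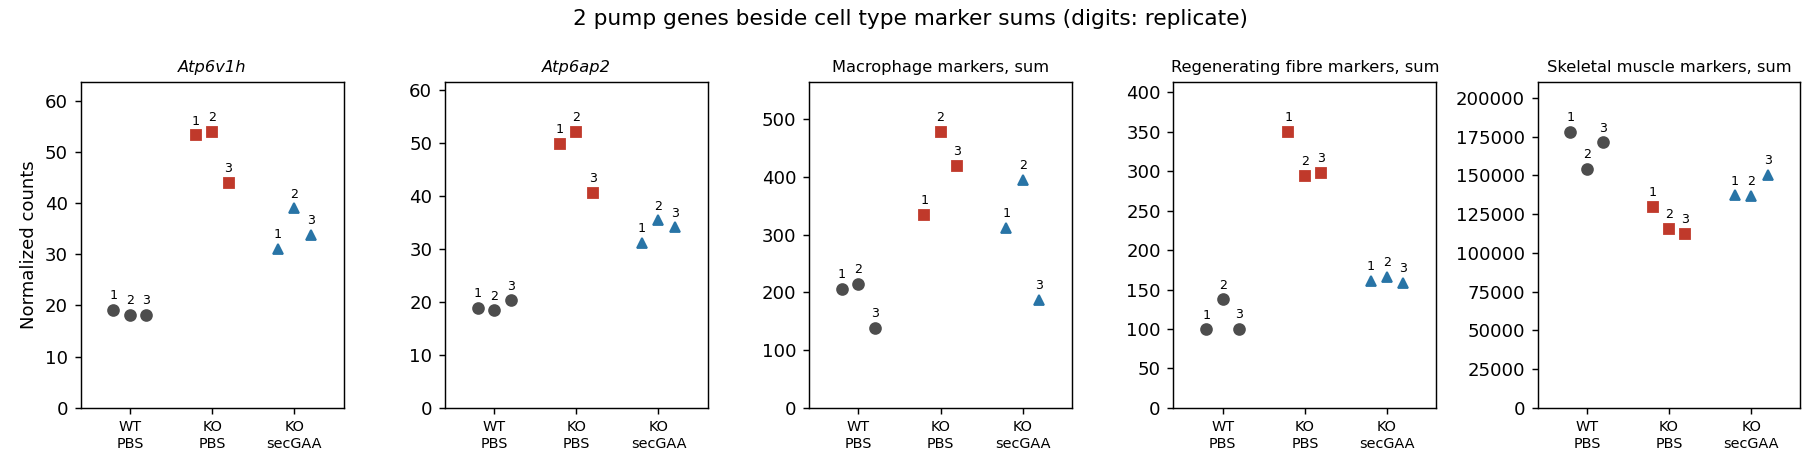
Normalized counts of Atp6v1h and Atp6ap2 and the summed normalized counts of the macrophage, regenerating fibre and skeletal muscle markers (vertical axes starting at 0) in each library, with the replicate number beside each point. Both pump genes and the regenerating fibre sum are higher in every KO_PBS library than in any other, the muscle sum is lower, and the macrophage sums of KO_PBS, 335 to 478, overlap with those of KO_secGAA, 188 to 396.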

How the data were processed

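RNA-seq libraries of quadriceps muscle, 3 per group, were made from polyadenylated RNA with Trizol, columns and the NEBNext Ultra RNA kit and read as single ends of 61 bp on a HiSeq2500, per the labels' protocols. The build GRCm38 and the tools edgeR, limma, RSEM, cutadapt and CASAVA come from the submitters' processing notes. What each tool did, its version and whether counting used strand is not given in the sources used here. The deposited table holds a normalized signal, called normalized counts per the file headers. In each column 100% of the 118044 values were odd whole multiples of the smallest value's unit within a relative tolerance of 1e-06. Whole reads were recovered from this, each value being reads plus 0.5 over an effective library size, times 1e+06; edgeR's TMM factors rebuilt the table within 9.2e-08.

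Since the values are normalized and not raw counts, limma 3.58.1 in R 4.3.3 was fitted to log2(value + 0.5) in all 9 libraries with group means, no covariate and a trended empirical Bayes prior (6 residual degrees of freedom). The filter kept 13089 of 13116 genes, those that reached a value of 1 in 3 or more libraries. Calls use a Benjamini-Hochberg adjusted p under 0.05 over all of these genes, and every adjusted p comes from limma unless another tool is named. Intervals are at 95%. With 9299156 to 15957106 reads a library, the pump genes rested on 19 to 4029 reads. The table holds 0 columns of other samples.

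The 20 alternative settings were no scaling factors, quantile normalization, pseudocounts of 0.1 and 1, no filter, a mean of at least 5, no trend, only the 2 groups compared, limma voom, edgeR 4.0.16 and DESeq2 1.42.0 on recovered reads, and leaving out each of the 9 libraries. Named genes are all 10 members and all other subunits in the table, up to 4 genes of each other list with the smallest adjusted p, defining markers, Gaa, and the 5 genes nearest in profile. Members and lists were chosen with earlier results of these data known. Positions are from GENCODE M21 on GRCm38 and promoters from RefSeq on GRCm38.p6.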

Additional observations from a re-analysis of the deposited data

How the results depend on the processing

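Over the 20 alternative settings, 1122 of 1197 values of single subunits kept their side of the threshold, 33 of them with a change of sign at values that did not pass, while 56 lost a call, 18 gained one and 1 reversed. Without scaling factors 9 pump genes and 7 other subunits were called in KO_PBS against WT_PBS, all higher, 5 and 2 in KO_secGAA against KO_PBS, all lower, and 4 and 0 in KO_secGAA against WT_PBS; the pump genes' median in the first was 0.55 beside a shift of 0.30 for all genes. Atp6v0e2 then reversed to 0.28 in KO_PBS against WT_PBS (limma adjusted p = 0.0419), and quantile normalization gave 0.07 for Ttn there. With libraries scaled to the mean of their subunits, chosen after seeing the data, Atp6v1c1 lost its call in KO_PBS against WT_PBS, at -0.04 (limma adjusted p = 0.779). Atp6v1e1, at -0.30 (limma adjusted p = 0.00843), and Atp6v1f, at -0.29 (adjusted p = 0.0141), then passed as lower relative to the pump mean. In KO_secGAA against KO_PBS, limma without a trend called 0 pump genes (4 at an unadjusted p under 0.05) and limma on only the 2 groups called 1. In KO_secGAA against WT_PBS either setting called 0 other subunits (3 and 2 at an unadjusted p under 0.05); the cause was not tested.

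Leaving out 1 library gave 3 to 4 pump genes and 0 to 2 other subunits called in KO_PBS against WT_PBS, 0 to 3 and 0 in KO_secGAA against KO_PBS, and 2 and 0 to 1 in KO_secGAA against WT_PBS. The lowest counts of pump genes came without WT_PBS 2, KO_PBS 1 or KO_PBS 2 in the first comparison and without KO_PBS 1, KO_PBS 2 or KO_secGAA 1 in the second. The rises of Atp6v1a, Atp6v1h and Atp6ap2 in KO_PBS against WT_PBS passed in 20 of 20 alternatives, with adjusted p up to 0.0038, 0.000599 and 0.000616. Over all genes, 2867 were called in KO_PBS against WT_PBS and 4984 without scaling factors. In KO_secGAA against KO_PBS 481 were called, with 959 without scaling factors, 286 without a trend, 316 on only the 2 groups and 798 by DESeq2. In KO_secGAA against WT_PBS the counts were 487, 1007 without scaling factors, 308 without a trend and 1022 by DESeq2. Leaving out 1 library gave 1744 to 2847, 159 to 568 and 94 to 503. No paired analysis was possible because the labels share no replicate number between groups. The rise of Atp6v1c1, at 0.30 the smallest that passed among the 10 pump genes, passed in 8 of 20 alternatives.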

Other observations

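Some subunit genes varied within a group more than between groups. Atp6v1g1, an outer stalk subunit, measured 192 and 201 normalized counts in WT_PBS 1 and 2 and 298 in WT_PBS 3. Rnasek measured 56.2 and 67.9 in KO_PBS 1 and 2 and 36.4 in KO_PBS 3, while its WT_PBS and KO_secGAA libraries lay between 54.8 and 63.2. Atp6v0a1 lay close together in KO_PBS, at 72.2 to 73.4, but ran from 51.6 to 71.1 in KO_secGAA. KO_PBS 3, the library with the fewest reads, held the lowest KO_PBS value of Atp6v1h, Atp6ap2 and Atp6v0d1 and the highest KO_PBS value of Atp6v1a. The part of depth in these differences was not tested.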
